A study of Homo sapiens with 6 samples.

Results

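The genes described here are 10 feedback targets of the Wnt and beta-catenin pathway: AXIN2, LEF1, TCF7, NKD1, SP5, LGR5, RNF43, ZNRF3, DKK1 and NOTUM. They were chosen by symbol from a table of 58051 genes, and each symbol matched 1 row. RNA was sequenced from HEK293T cells, a human embryonic kidney line with the SV40 T antigen, 48 hours after transient transfection. The control group (CTRL, 3 libraries) received the empty plasmid pcDNA3.1-, and the other group (PPK1, 3 libraries) received the same plasmid carrying ppk1, the gene of a bacterial enzyme that builds polyphosphate. Libraries of both groups are lettered B, C and D, and the 2 libraries of a letter are matched biological replicates. Both groups were lipofected and then kept in OptiMEM, and the protocol does not say which reagent or plasmid amount each library had. The labels name no added Wnt ligand or pathway inhibitor, and they do not give the share of cells that took up the plasmid. Levels are therefore averages over transfected and untransfected cells, and fewer responding cells cannot be told apart from a smaller response per cell. The level of ppk1 itself was not analysed here.

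In the Wnt pathway, a secreted Wnt protein binds a Frizzled receptor and an LRP coreceptor, which halts the destruction complex that otherwise degrades beta-catenin. Beta-catenin then enters the nucleus, binds TCF and LEF factors on DNA, and switches on target genes. Many of these targets encode parts or inhibitors of the pathway itself, so their transcripts are widely used as a readout of its activity. HEK293T cells are a common host for reporters of this pathway.

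No feedback target passed the test for a change with ppk1. Of the 10, 9 had enough reads to be tested and 0 passed, with adjusted p-values between 0.344 (LGR5) and 0.94 (AXIN2) in edgeR's quasi-likelihood test with the replicate letter as a block. Over all 19574 tested genes 9.08% passed, 1777 with the block and 470 without it, and without the block 0 of the 9 passed as well. At an unadjusted p below 0.05 the count was also 0 of 9, where all tested genes gave 23.8%. DESeq2 called 0 of 9, against 4.40% of the genes to which it gave an adjusted p. The median log2 fold change of the 9 genes was 0.06, and that of all tested genes was 0.01. Their median absolute log2 fold change was 0.09, beside 0.13 for all tested genes and 0.38 for the called ones.

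The intervals show how large a change the libraries leave possible. For 8 of the 9 genes the 95% interval of the log2 fold change lay between -0.5 and 0.5. DKK1 was the exception, with an upper bound of 0.56. On the linear scale the lowest bound was 0.770-fold, for LGR5, and the highest 1.47-fold, for DKK1. These intervals come from the same fit and from 3 matched pairs. That fit shares information on spread between genes (prior degrees of freedom 47.5), so a gene's own 3 pairs set its interval only in part.

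**Figure D1:**
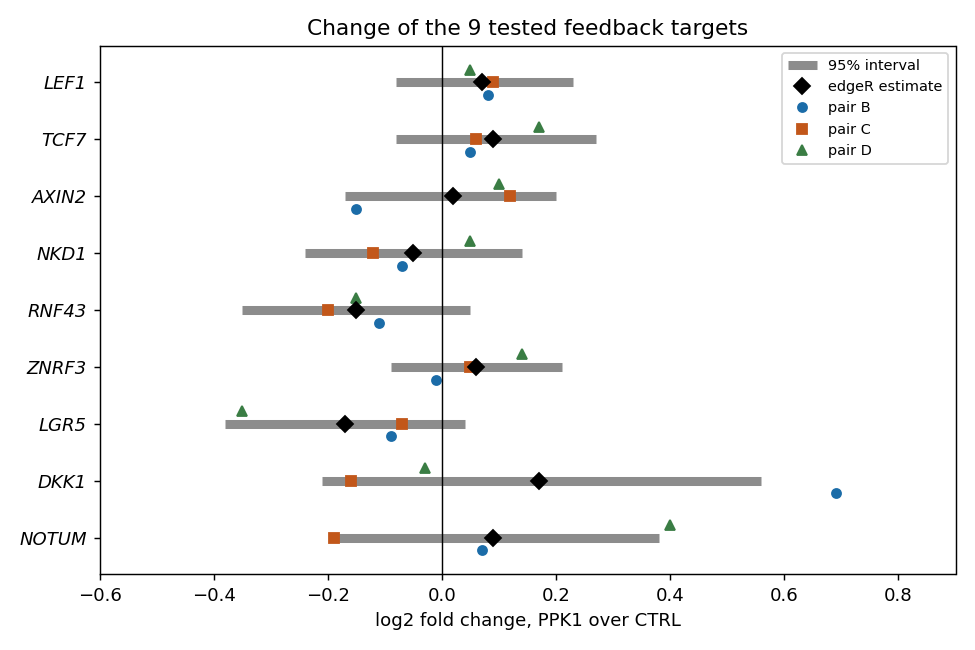
Log2 fold change of PPK1 over CTRL for the 9 tested genes. Diamonds are the edgeR estimates, grey bars their 95% intervals, and coloured points the single matched pairs B, C and D. Every grey bar crosses 0, and the widest belongs to DKK1, whose pair B lies at 0.69.

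Of all 6 libraries, the totals ran from 40851783 to 67122986 counts, and the PPK1 library was the deeper one of each pair. All 10 marker genes listed for the HEK293 line were above the filter on low counts. Of 16 markers of other cell types, 10 had a mean under 10 counts, and KRT14 was at 0 in every library. The summed level of those 16 was between 19.0 and 23.7 CPM (the count relative to the scaled library size) in CTRL and between 22.2 and 22.4 CPM in PPK1, most of it COL1A1 (18.5 ± 2.78 and 19.5 ± 0.526 CPM, mean ± SD, n = 3). On this marker list ALB was called lower and GFAP higher (not without the block), both at less than 1 CPM. Of the HEK293 markers KRT18 and INA were called higher and NEFL lower, none of them without the block. Over all tested genes, 4.04% were called higher and 5.04% lower. The part of these markers in the results below was not tested.

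Promoter windows from RefSeq (GRCh38.p14) were used for 5 of the feedback targets: SP5, DKK1, LEF1, TCF7 and RNF43. The 250 bases before the start site were searched on both strands for CTTTGAT and CTTTGAA, short forms of the site that TCF and LEF factors bind. Of 35116 windows in the table, 2.26% held CTTTGAT and 3.80% held CTTTGAA, and 5.94% held either. The SP5 window held 3 matches, a number reached by 7 windows (0.0199%). The DKK1 window held 1 match, and those of LEF1, TCF7 (2 windows) and RNF43 (2 windows) held none. Printed below are SP5, the member with most matches and the fewest reads, DKK1, and LEF1, which has no match in this window and the most reads of these 5 genes. Capitals mark the matches, which are letters in a sequence and not measured binding sites.

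SP5, chr2:170715087-170715336, plus strand, matches starting 148, 109 and 84 bases before the start site:
SP5: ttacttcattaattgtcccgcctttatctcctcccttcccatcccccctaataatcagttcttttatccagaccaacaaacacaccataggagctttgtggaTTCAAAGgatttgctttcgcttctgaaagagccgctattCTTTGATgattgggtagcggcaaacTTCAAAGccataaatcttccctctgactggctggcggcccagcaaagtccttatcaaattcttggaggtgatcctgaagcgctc
DKK1, chr10:52314031-52314280, plus strand, match starting 95 bases before the start site:
DKK1: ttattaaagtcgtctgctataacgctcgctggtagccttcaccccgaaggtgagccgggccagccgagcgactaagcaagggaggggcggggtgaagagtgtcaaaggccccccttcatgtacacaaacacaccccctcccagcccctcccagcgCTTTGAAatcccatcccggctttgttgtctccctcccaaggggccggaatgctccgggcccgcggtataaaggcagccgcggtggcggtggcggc
LEF1, chr4:108166302-108166551, minus strand:
LEF1: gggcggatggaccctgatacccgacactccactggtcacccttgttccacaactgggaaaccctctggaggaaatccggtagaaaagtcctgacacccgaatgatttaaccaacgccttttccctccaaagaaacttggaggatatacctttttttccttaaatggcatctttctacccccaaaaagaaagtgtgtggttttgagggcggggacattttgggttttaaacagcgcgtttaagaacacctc

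LEF1 (ENSG00000138795, chromosome 4) and TCF7 (ENSG00000081059, chromosome 5) encode DNA-binding partners of beta-catenin that are themselves raised by the pathway in many cells. LEF1 stood at 32.1, 30.2 and 28.7 CPM in CTRL B, C and D, and at 33.9, 32.2 and 29.7 CPM in the matched PPK1 libraries. It was a little higher in the PPK1 library of each pair, but the groups overlapped, since CTRL B lay above PPK1 D. The log2 fold change was 0.07 (SE 0.08, edgeR adjusted p 0.609). The difference was similar in the 3 pairs, at 0.08, 0.09 and 0.05 on the log2 scale, and each pair's own counting interval included 0.

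TCF7 read 14.8, 14.8 and 13.4 CPM in CTRL B, C and D and 15.3, 15.4 and 15.1 CPM in PPK1. These groups did not overlap, yet the log2 fold change was 0.09 (SE 0.09) with an edgeR adjusted p of 0.569. Besides TCF7, LGR5 was the other tested member without overlap, so 2 of 9 genes had separate groups, against 25.6% of all tested genes. The PPK1 values of TCF7 were close together (SD 0.136 CPM, against 0.774 CPM in CTRL). Exons of SKP1 lie opposite 210 bases of TCF7.

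Within the TCF and LEF family LEF1 had the highest transcript level per length. In CTRL it held 45.0 ± 0.749% of the family's summed CPM per kb of exons, and in PPK1 43.5 ± 1.62% (mean ± SD, n = 3). TCF7L2 held 24.5 ± 0.73% and 26.3 ± 1.88%, TCF7L1 19.3 ± 1.44% and 19.0 ± 0.526%, and TCF7 11.3 ± 0.343% and 11.1 ± 0.33%. The order of the 4 genes was the same in both groups. TCF7L2, a related DNA-binding partner of beta-catenin, differed by 0.22 on the log2 scale (SE 0.08) and missed the threshold (edgeR adjusted p 0.0795).

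SP5 (ENSG00000204335, chromosome 2), a zinc finger repressor that acts on other Wnt target genes, was near the limit of detection. Its counts were 13, 5 and 6 in CTRL B, C and D and 3, 5 and 4 in PPK1. On the CPM scale the CTRL libraries lay between 0.113 and 0.246 and the PPK1 libraries between 0.0449 and 0.104, so the groups did not overlap, by a narrow margin. A count of 3 corresponds to between 0.0447 and 0.0734 CPM in these libraries before scaling. Summed over libraries, 24 counts stood against 12, a ratio of PPK1 to CTRL of 0.441 with an exact 95% interval of 0.201 to 0.916 that covers counting error only. SP5 did not pass the filter on low counts. With no filter its log2 fold change was -1.13 (SE 0.62, edgeR adjusted p 0.426). Most of the difference came from pair B, at -2.45 on the log2 scale, while pairs C and D were at -0.11 and -0.62. SP5, whose promoter window is shown above with 3 motif matches, had the fewest reads of the 10 genes. SP8, a related gene, was far more abundant at 2.37 ± 0.151 CPM per kb over the 6 libraries, against 0.0608 ± 0.0329 CPM per kb for SP5.

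**Figure D2:**
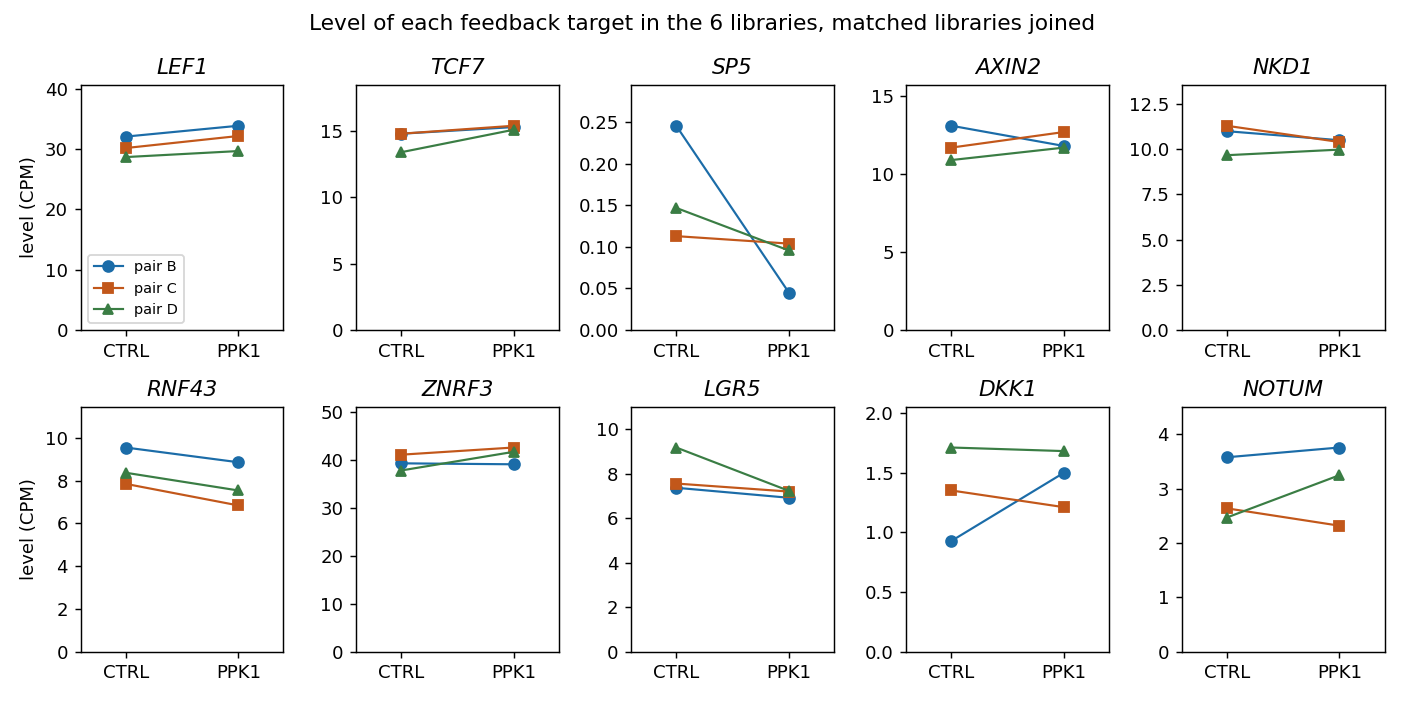
Level of the 10 genes in CPM in each library, with CTRL on the left, PPK1 on the right and the matched libraries of a letter joined. Each panel has its own axis from 0. The lines of most genes are nearly flat, while those of DKK1 cross and SP5 lies below 0.25 CPM throughout.

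AXIN2 and NKD1 act inside the cell. AXIN2 (ENSG00000168646, chromosome 17) is a scaffold of the destruction complex and the most used transcript readout of beta-catenin. Its level was 13.1, 11.7 and 10.9 CPM in CTRL B, C and D, and 11.8, 12.7 and 11.7 CPM in PPK1. The pairs went both ways: PPK1 was lower in pair B (-0.15 on the log2 scale) and higher in C (0.12) and D (0.10). The log2 fold change was 0.02 (SE 0.09, edgeR adjusted p 0.94), with a 95% interval from -0.17 to 0.20, and its sign depended on the setting (from -0.04 without replicate D to 0.11 without replicate B). AXIN2 shares 24.1% of its transcript sequence with AC004805.1, a gene model that overlaps it on the same strand. How reads from that sequence were counted is not given, so the size of any error in the AXIN2 count is unknown.

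NKD1 (ENSG00000140807, chromosome 16), which binds Dishevelled and dampens the signal, read 11.0, 11.3 and 9.67 CPM in CTRL B, C and D and 10.5, 10.4 and 9.98 CPM in PPK1. The groups overlapped and pair D went the other way from B and C. The log2 fold change was -0.05 (SE 0.10, edgeR adjusted p 0.801). Both genes were minor members of their families per length. AXIN2 held 25.7 ± 1.82% of the summed AXIN1 and AXIN2 level in CTRL and 23.8 ± 0.402% in PPK1 (mean ± SD, n = 3). NKD1 held 7.24 ± 0.42% and 6.79 ± 0.277% of the summed NKD1 and NKD2 level. This share depends on the lengths used, 17.425 kb for NKD1 and 2.885 kb for NKD2. Before division by length, NKD1 read 10.7 ± 0.876 CPM in CTRL and NKD2 22.7 ± 2.83 CPM.

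RNF43 and ZNRF3 encode related membrane ubiquitin ligases that remove Frizzled receptors from the cell surface. ZNRF3 (ENSG00000183579, chromosome 22) was the member with the most reads, at 39.3, 41.1 and 37.8 CPM in CTRL B, C and D and 39.1, 42.6 and 41.7 CPM in PPK1. The groups overlapped. Its log2 fold change was 0.06 (SE 0.07, edgeR adjusted p 0.675), with a 95% interval from -0.09 to 0.21, the narrowest of the 9.

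RNF43 (ENSG00000108375, chromosome 17) read 9.55, 7.85 and 8.37 CPM in CTRL B, C and D and 8.86, 6.84 and 7.54 CPM in PPK1. PPK1 was lower in each pair, by -0.11, -0.20 and -0.15 on the log2 scale, while the letters differed among themselves by more than that, so the groups overlapped. The log2 fold change was -0.15 (SE 0.10, edgeR adjusted p 0.388). For RNF43, 57.0% of the transcript sequence also occurs in other gene models, chiefly AC004687.2, which overlaps it on the same strand. Exons of TSPOAP1-AS1 lie opposite it. This is the largest such share among the 10 genes, and how the counting treated these reads is not given in the sources used here.

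The balance of the 2 ligases was computed as the ratio of their counts in each library. RNF43 per ZNRF3 was 0.243, 0.191 and 0.221 in CTRL B, C and D and 0.227, 0.161 and 0.181 in PPK1. The ratio was lower in the PPK1 library of all 3 pairs, by a mean of -0.21 ± 0.10 on the log2 scale (SD, n = 3 pairs). Flipping the signs of the 3 pairs in every way (exact permutation test, two-sided) gave p = 0.25, which is the smallest value 3 pairs can give, so this test cannot pass 0.05. AXIN2 per AXIN1 was also lower in all 3 pairs (mean -0.15 ± 0.17, exact p = 0.25), whereas LEF1 per TCF7 (-0.02 ± 0.09, exact p = 1) and LGR5 per LGR4 (-0.10 ± 0.13, exact p = 0.5) differed in sign between pairs. These 4 ratios were chosen after the counts had been seen, and none passes after adjustment over 4.

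LGR5 (ENSG00000139292, chromosome 12) encodes a receptor for R-spondins, the ligands that clear RNF43 and ZNRF3 from the membrane, and marks stem cells in several epithelia. It read 7.37, 7.56 and 9.18 CPM in CTRL B, C and D and 6.92, 7.20 and 7.23 CPM in PPK1. Every CTRL library lay above every PPK1 library, but B and C by a small margin, and CTRL D stood apart from the other 5. The log2 fold change was -0.17 (SE 0.10), with a 95% interval from -0.38 to 0.04 and an edgeR adjusted p of 0.344, the smallest of the 9. Without replicate D it was -0.10 (edgeR adjusted p 0.667). In pair D alone the difference was -0.35 with an exact counting interval of -0.57 to -0.12, against -0.09 in B and -0.07 in C.

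Among 15100 other tested genes whose normalized counts averaged 50 or more, those whose log2 CPM followed LGR5 most closely over the 6 libraries were GALK2 (r = 0.997), MKI67 (0.996), BUD31 (0.996), BUB1 (0.992) and GGPS1 (0.99). All 5 were highest in CTRL D, as LGR5 was, and none was called. Of the 15100 genes, 473 had an r above 0.9 with LGR5, so the 5 named head a longer list. Only 6 libraries enter each r. LGR4, the related receptor, was the most abundant of the 3, at 7.68 ± 0.433 CPM per kb over the 6 libraries, beside 1.44 ± 0.155 for LGR5 and 0.208 ± 0.059 for LGR6.

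**Figure D3:**
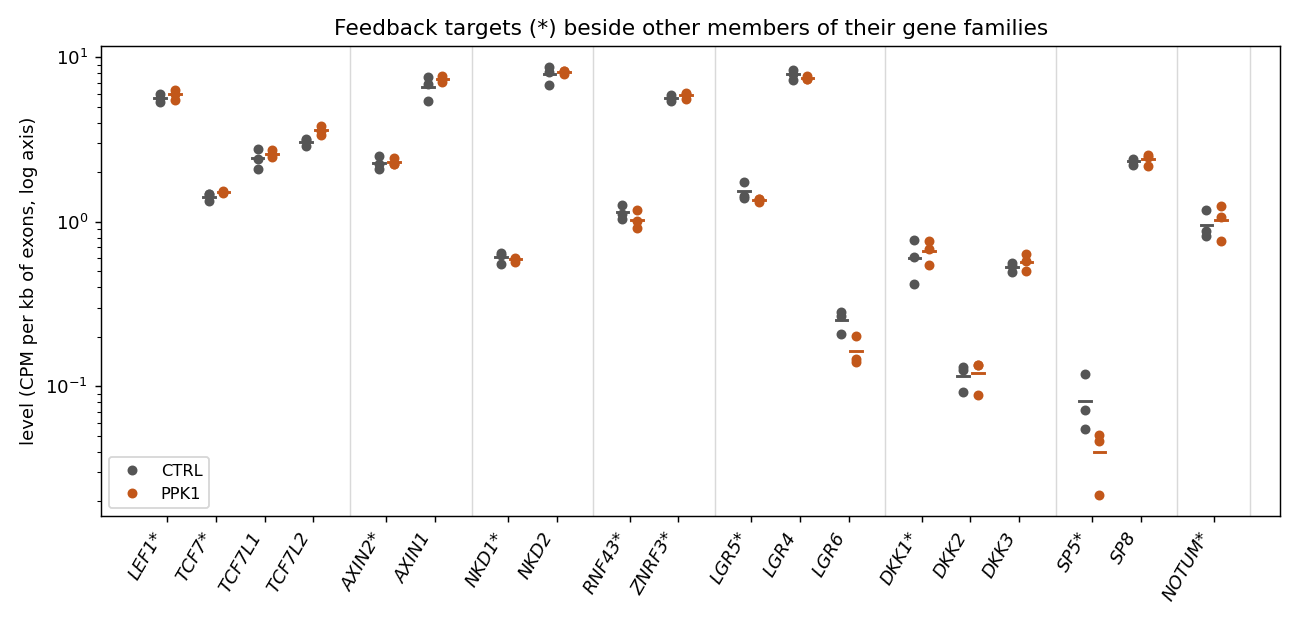
Level in CPM per kb of exons, on a log axis, of the 10 feedback targets (starred) and of relatives in the same gene families. Points are the 3 libraries of each group and short bars their means. LEF1 and ZNRF3 have the highest means of their families, DKK1 and DKK3 lie close together, and AXIN2, NKD1, LGR5 and SP5 lie below AXIN1, NKD2, LGR4 and SP8.

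DKK1 and NOTUM encode secreted inhibitors. DKK1 (ENSG00000107984, chromosome 10), which binds the LRP5 and LRP6 coreceptors, read 0.928, 1.35 and 1.71 CPM in CTRL B, C and D and 1.50, 1.21 and 1.68 CPM in PPK1, from 49, 60 and 70 counts against 100, 58 and 70. It was higher in pair B by 0.69 on the log2 scale, with an exact counting interval of 0.18 to 1.21, and lower in pairs C (-0.16) and D (-0.03). The low value of CTRL B made the pair stand out, and the groups overlapped. The fitted difference (0.17 on the log2 scale, SE 0.19, edgeR adjusted p 0.629) rested on that pair: without replicate B it was -0.10 (edgeR adjusted p 0.851). The spread within CTRL (29.5% of the mean) was larger than counting alone gives (13.1%). DKK1 held 47.6 ± 5.66% of the summed DKK level per length in CTRL and 48.7 ± 2.43% in PPK1, DKK3 43.2 ± 5.61% and 42.3 ± 0.74%, and DKK2 9.28 ± 0.502% and 9.03 ± 2.78%. The order of DKK1 and DKK3 depended on the length used: with the longest transcript DKK1 held 38.6% in CTRL and DKK3 54.1%.

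NOTUM (ENSG00000185269, chromosome 17), an enzyme that inactivates Wnt proteins by removing their lipid, read 3.58, 2.64 and 2.47 CPM in CTRL B, C and D and 3.76, 2.32 and 3.25 CPM in PPK1. The 3 pairs differed by 0.07, -0.19 and 0.40 on the log2 scale, and the groups overlapped. The log2 fold change was 0.09 (SE 0.14, edgeR adjusted p 0.747), and it was -0.06 without replicate D. As for DKK1, the libraries of each group varied by more than counting error, with a coefficient of variation of 20.6% in CTRL and 23.5% in PPK1 against 8.90% and 8.24%. Among the other tested members the same held in both groups for AXIN2, LEF1, RNF43 and ZNRF3, and in CTRL only for TCF7, NKD1 and LGR5.

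The order of levels per length over the 6 libraries was LEF1 (5.80 ± 0.356 CPM per kb), ZNRF3 (5.78 ± 0.261), AXIN2 (2.30 ± 0.151), TCF7 (1.47 ± 0.0712), LGR5 (1.44 ± 0.155), RNF43 (1.09 ± 0.129), NOTUM (0.995 ± 0.201), DKK1 (0.633 ± 0.135), NKD1 (0.601 ± 0.0353) and SP5. LEF1 and ZNRF3 could not be ordered by their ranges, nor could TCF7 and LGR5, and RNF43, NOTUM and DKK1 each overlapped the next gene below. Steps without overlap of the ranges lay between ZNRF3 and AXIN2, between AXIN2 and TCF7, between LGR5 and RNF43, and between NKD1 and SP5. The places of AXIN2 and RNF43 are less certain, since 24.1% and 57.0% of their transcript sequence also occurs in other gene models. How reads from such sequence were counted is not given. With the longest transcript in place of the merged exons as length, a choice added after seeing the data, the ranks of the 10 genes were the same but some steps moved. LEF1 (8.95 CPM per kb) then stood clear of ZNRF3 (5.88), and NOTUM of DKK1. In turn AXIN2 (2.82) overlapped TCF7 (2.77), TCF7 stood clear of LGR5, and LGR5 overlapped RNF43. The steps from ZNRF3 to AXIN2 and from NKD1 to SP5 were present with both lengths. For NKD1 the lengths were nearly the same (17.425 and 17.105 kb), so its place depends on a long transcript either way. It averaged 515.7 counts per library, against 67.8 for DKK1. LEF1 and ZNRF3 stood near the middle of the 14163 tested protein-coding genes by this measure (percentiles 50.7 and 50.5), AXIN2 at percentile 31.1 and SP5 at 1.88.

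Taken as a sum, the 10 genes held 131.9, 128.7 and 122.4 CPM in CTRL B, C and D and 131.6, 131.0 and 128.0 CPM in PPK1. The PPK1 library was lower in pair B by 0.277 CPM and higher in C by 2.22 and in D by 5.56 CPM. The mean difference was 2.50 CPM (SD of the pairs 2.93, n = 3 pairs), a description without a test. ZNRF3 and LEF1 made up 55.4% of the sum. Of the 9 tested genes, 4 were higher in pair B, 4 in pair C and 6 in pair D, and 4 of the 9 had the same sign in all 3 pairs, against 43.8% of all tested genes.

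The rest of the pathway was described with 8 further lists that hold 133 genes, of which 111 were tested. Of these, 8 passed the edgeR threshold (7.21%), 2 higher and 6 lower, where all tested genes gave 4.04% higher and 5.04% lower. With upper-quartile scaling the split over all genes was 422 higher and 933 lower, against 791 and 986. Of the 8, only ZCCHC12 and SFRP4 were also called without the replicate block, and of the 8 only these were called without replicate C. DESeq2 called ZCCHC12, SFRP4 and PPP2R1A of the 8. Values of the other 6 are given below with that limit.

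None of the 12 tested Wnt ligands and none of the 4 secretion genes was called (0 of each also without the block). WNT5A, the most abundant ligand, which acts mostly through pathways other than beta-catenin, read 45.1 ± 1.07 CPM in CTRL and 49.3 ± 1.10 CPM in PPK1 (mean ± SD, n = 3; edgeR adjusted p 0.302), and WNT3 read 12.1 ± 2.14 and 12.8 ± 1.55 CPM (0.64). Of the secretion genes, the cargo receptors TMED2 and TMED5 had the most reads, with log2 fold changes of 0.03 each. The rest of this list was WLS at -0.17 (SE 0.07, edgeR adjusted p 0.134) and PORCN at -0.05 (SE 0.09, 0.783).

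Among 16 receptors and coreceptors 0 were called higher and 2 lower, where all tested genes gave 4.04% higher and 5.04% lower. Of the 16 estimates 12 were negative, with a median log2 fold change of -0.08, beside 0.01 for all tested genes. The signs within this and the other lists were not tested as a set. ROR1, a receptor tyrosine kinase-like protein that binds WNT5A, was at 20.3 ± 1.04 CPM in CTRL and fell to 16.6 ± 1.14 CPM in PPK1 (log2 fold change -0.29, SE 0.08, edgeR adjusted p 0.0214, 0.0946 without the block, 0.583 without replicate C). FZD4, a Frizzled for Wnt and Norrin, was at 26.7 ± 0.686 CPM in CTRL and fell to 22.1 ± 1.37 CPM in PPK1 (log2 fold change -0.27, SE 0.08, edgeR adjusted p 0.0222, 0.0895 without the block, 0.447 without replicate C). FZD4 has exons of PRSS23 opposite it. The coreceptors that DKK1 binds, LRP5 and LRP6, were not called (edgeR adjusted p 0.71 and 0.0746).

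Of the R-spondins and the 2 other LGR receptors, 3 of 6 were tested and all 3 estimates (RSPO4, LGR4 and LGR6) were negative. LGR6, at 1.23, 1.29 and 0.955 CPM in CTRL B, C and D and 0.644, 0.668 and 0.933 CPM in PPK1, was just past the threshold (log2 fold change -0.66, SE 0.22, edgeR adjusted p 0.0498, 0.131 without the block). Pairs B and C carried this difference, and pair D was at -0.03; without replicate B the adjusted p was 0.246 and without C 0.522. The other secreted or membrane inhibitors, relatives of DKK1 and NOTUM in function, had 12 tested genes with 0 called higher and 1 lower. Over all tested genes the shares were 4.04% higher and 5.04% lower. SFRP4, which encodes a secreted Frizzled-related protein, had 41, 40 and 45 counts in CTRL B, C and D and 29, 8 and 16 in PPK1. It fell by 1.45 on the log2 scale (SE 0.28, edgeR adjusted p 0.000318, and 0.0264 without the block).

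In the list of beta-catenin, Dishevelled and the destruction complex, 1 of 20 genes was called higher and 1 lower. All tested genes gave 4.04% higher and 5.04% lower. PPP2R1A, the scaffold subunit of the phosphatase PP2A, rose from 205 ± 8.92 to 252 ± 19.0 CPM (log2 fold change 0.29, SE 0.07, edgeR adjusted p 0.00665, 0.0612 without the block, 0.433 without replicate C). TNKS, which marks AXIN proteins for degradation, fell from 83.6 ± 4.84 to 71.7 ± 3.85 CPM (log2 fold change -0.22, SE 0.07, edgeR adjusted p 0.0494, 0.141 without the block, 0.07 without replicate B, 0.65 without replicate C). Both have an antisense gene opposite them. CTNNB1, the gene of beta-catenin itself, was not called, at 480 ± 56.8 and 493 ± 25.2 CPM (log2 fold change 0.05, SE 0.08).

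Of 17 nuclear partners 0 were called (0 also without the block), and 13 of 17 estimates were positive. Their median log2 fold change was 0.10, beside 0.01 for all tested genes. The 2 with the most reads were SMARCA4 (294 ± 31.0 and 326 ± 29.4 CPM, edgeR adjusted p 0.235) and CHD8 (193 ± 4.61 and 193 ± 14.4 CPM). Without replicate B, 4 of these 17 genes were called higher, a setting in which 6.50% of all tested genes were called higher.

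The 27 tested genes of the list of other reported Wnt targets had 1 call in each direction and a median log2 fold change of -0.04. Shares over all tested genes were 4.04% higher and 5.04% lower. ZCCHC12 rose from 47.4, 50.1 and 49.6 CPM in CTRL B, C and D to 78.0, 69.0 and 70.3 CPM in PPK1. The lowest PPK1 value lay well above the highest CTRL value (log2 fold change 0.56, SE 0.08, edgeR adjusted p 7.2e-07, and 0.00178 without the block). ZCCHC12 is better known as a coactivator in BMP signalling, and its place on this list is not firm. PROX1, a homeobox transcription factor, fell from 13.5 ± 1.06 to 11.0 ± 0.783 CPM (log2 fold change -0.29, SE 0.09, edgeR adjusted p 0.0425, 0.139 without the block, 0.0714 without replicate B, 0.707 without replicate C). PROX1-AS1 lies opposite it. JUN, the gene with the most reads on the list, and MYC had log2 fold changes of -0.08 each and were not called.

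**Figure D4:**
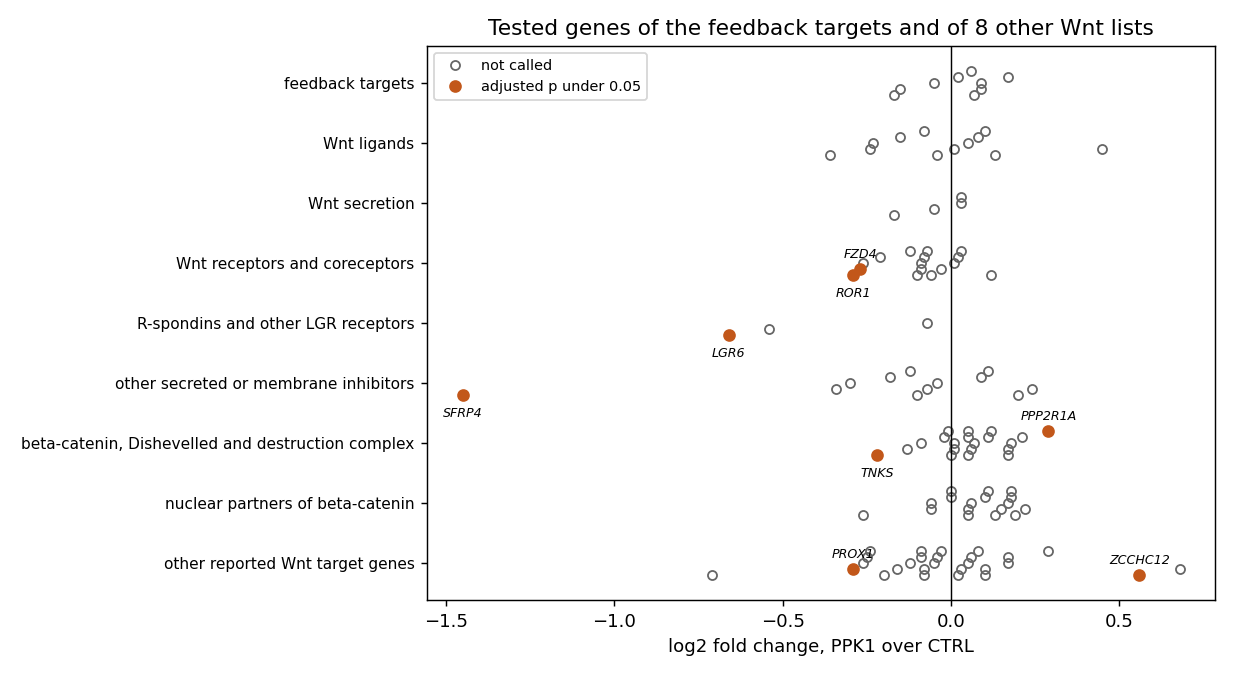
Log2 fold change of PPK1 over CTRL for each tested gene of the feedback targets and of the 8 other Wnt lists. Filled points passed an edgeR adjusted p of 0.05 and are named, and open points did not. The feedback targets, on the top line, hold no filled point and lie between -0.17 and 0.17.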

How the data were processed

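Read counts per gene were analysed for 6 HEK293T libraries. The authors deposited raw counts of 58051 Ensembl genes, 1 column per library, and 0 columns stayed unmatched. The submitters' processing notes name bcl2fastq 2.20, Trimmomatic, STAR, HTSeq, edgeR, DESeq, Cufflinks and Cuffdiff without their roles. Genome build, annotation and strand setting of the counting are not given in the sources used here, so overlapping genes are uncertain. Per the labels' protocols, libraries were poly(A)-selected and directional.

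Genes were filtered with filterByExpr of edgeR 4.0.16 (minimum count 10, 19574 kept), scaled by TMM, and tested with glmQLFit and glmQLFTest in R 4.3.3, with Benjamini-Hochberg adjustment over all tested genes at 0.05. The replicate letter was a block, since the series' design text states that libraries of a letter are matched. As a check, each library's difference from its group mean was correlated with that of its match: 0.109 (B), 0.135 (C) and 0.0476 (D), against -0.12 to -0.00506 between letters. These differences sum to 0 within a group, so positive values within letters bring negative ones between letters by arithmetic. The values between letters are therefore not separate evidence for the pairing. SE is the absolute log2 fold change over the root of F. CPM uses TMM-scaled totals. Log2 CPM used a prior count of 2. Lengths and chromosomes are from GENCODE release 29 (98.96% of identifiers matched). Shared sequence was counted in stretches of 50 bases. Counting intervals are exact 95% binomial intervals that cover counting error only, since the labels name no molecular identifiers. Alternatives were DESeq2 1.42.0, other scalings and filters, a robust fit, GC and length offsets, no block, and each letter left out. The main edgeR fit was also run on simulated counts. These held no difference between letters other than depth, so that run did not check the block. P-values of the fits set the difference between groups against the spread between these libraries, which the fits estimate partly from other genes. Named were all members, up to 4 called genes of each list by smallest p, or the 2 with most reads where none was called, and the 5 genes most like the member with the smallest p. LRP5, LRP6, CTNNB1, JUN, MYC, TCF7L1, TCF7L2, AXIN1, NKD2, LGR4, RSPO4, DKK2, DKK3, SP8, WLS, PORCN and the marker genes were added as relatives or references after values were seen. The members and lists were chosen with earlier results of these data known.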

Additional observations from a re-analysis of the deposited data

How the results depend on the processing

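Across 11 alternatives, 0 of the feedback targets were called, with adjusted p-values of at least 0.228; in 93 of 99 values the direction also stayed the same. The 6 values that changed sign were small. AXIN2 went from 0.02 to -0.01 (log2) with upper-quartile scaling and to -0.03 with GC and length offsets in the paired fit. With one pair left out AXIN2 ran from -0.04 to 0.11. DKK1 ran from -0.10 (without B) to 0.32 (without C) and NOTUM from -0.06 (without D) to 0.21 (without C). The cause was not tested.

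The calls in the 8 other Wnt lists changed more. Against 2 higher and 6 lower, there were 1 and 1 with no replicate block, and 4 and 12 with the replicate block and GC and length offsets. Leaving out a pair gave 1 (without C) to 8 (without B) higher and 1 (without C) to 10 (without D) lower. Over all genes, calls higher and lower were 791 and 986, against 89 and 381 without the block, 1303 and 1446 with the offsets, 1263 and 1172 without B, 82 and 324 without C, and 671 and 1132 without D. DESeq2 called 1 lower, and a filter at a mean of 50 counts left 3, with LGR6 and SFRP4 no longer tested. Otherwise the cause was not tested. SP5, DKK1 and NOTUM had the fewest reads of the feedback targets, with means of 6, 67.8 and 150.8 counts per library; SP5 was too low to test.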
